A study of Homo sapiens with 6 samples.

Results

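The serum-response genes EGR1, EGR2, EGR3, NR4A1, IER2, IER3, IER5, ZFP36, ZFP36L1 and MCL1, all outside the AP-1 family, were followed across the 3 groups of the experiment. They were chosen by name as immediate-early genes, with earlier results of these data known, and matched to the symbols of the count files. All 10 were found among 24462 symbols, and all 10 had enough counts to be among the 12650 genes tested. MDA-MB 231 is a triple-negative, mesenchymal breast cancer cell line. RNA was taken 48 h after transfection with the negative control (NC) mimic, with the miR-200a mimic (100 nM), or with the miR-200a mimic (100 nM) plus a plasmid expressing ELK3 (30 ng), and each of the 3 groups had 2 libraries, 6 in all. Every group used the same parental line and the same lipid transfection reagent. The labels name no plasmid for the other 2 groups and no dose for the NC mimic. The ELK3 plasmid is named pcDNA3.1-Flag-ELK3 in the treatment protocol and pcDNA3.1 Hygro(+)-ELK3 in the treatment label, and by the study's methods it carries the ELK3 coding region without the native 3′UTR. The methods speak of independent experiments for all statistical data in general, but neither they nor the labels say that the 2 libraries of a group came from separate cultures, so the p-values measure only the spread between these libraries, which may be technical.

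Immediate-early genes are switched on within minutes of a mitogenic signal, without new protein synthesis, and are switched off again just as fast because their RNAs are short-lived. The signal runs through the ERK kinases to ternary complex factors, a small ETS subfamily to which ELK3 belongs, which sit beside serum response factor (SRF) on the serum response element of the promoter. SRF binds the CArG box of the element, CC and GG around a run of A and T, and the ternary complex factor binds an ETS core, GGAA, next to it. ELK3 is known as a repressor that can turn into an activator when ERK phosphorylates it. The members fall into 4 roles. EGR1, EGR2 and EGR3 are zinc finger transcription factors, and NR4A1 is an orphan nuclear receptor. IER2, IER3 and IER5 are small immediate-early response proteins. ZFP36 and ZFP36L1 bind AU-rich elements in 3′UTRs and speed the decay of the RNAs that carry them. MCL1 is a short-lived antiapoptotic protein of the BCL2 family.

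The miRNA that was added and the promoter stretches that hold a CArG box are shown first, because miR-200a is the treatment and ELK3 acts with SRF at such boxes. The mature miRNA, from RefSeq on GRCh38.p14 at chr1:1167916-1167937 on the plus strand, has its seed, bases 2 to 8, in capitals.
hsa-miR-200a-3p: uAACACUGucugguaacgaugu
A perfect seed site reads CAGTGTT in a 3′UTR. Of the 10 members, 1 had such a site, IER5 with 1 match in its 3′UTR of 3013 bases. Over 11170 tested genes with an annotated 3′UTR, 19.6% had at least 1 site.

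The RefSeq promoter windows, 250 bases before to 50 after each start on GRCh38.p14, gave 11 windows for 7 of the 10 members. EGR3, IER3 and MCL1 had no window among these 11, so their promoters were not searched for CArG boxes or ETS cores. Whether they hold any is therefore not known from these windows. CArG boxes were found in 2 of the 11 windows. That of EGR1 held 2, at bases -105 to -96 and -83 to -74 from the start, and the third start of EGR2 held 1, at -71 to -62. Both stretches are printed 5′ to 3′ along the gene's strand with the boxes in capitals. The EGR1 stretch lies at chr5:138465354-138465425 on the plus strand, upstream of the annotated gene. The EGR2 stretch lies at chr10:62816408-62816457 on the minus strand, inside the span of the gene's longer transcripts and in no annotated exon.
EGR1: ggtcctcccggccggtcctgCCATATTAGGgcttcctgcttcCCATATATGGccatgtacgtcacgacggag
EGR2: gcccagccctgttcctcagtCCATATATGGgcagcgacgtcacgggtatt
An ETS core (GGAA on either strand, so TTCC where it is on the other one) stands 2 bases after the first EGR1 box, and the next core shares 1 base with the second box. At EGR2 a core ends 5 bases before the box. Of 35116 promoter windows in the table, 1.29% held at least 1 CArG box and 0.0313% held at least 2. The ETS core was in 95.5% of all windows and in each of the 11 member windows, 2 to 7 times, so its presence alone does not set a promoter apart. These are matches of letters and not measured binding.

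**Figure D1:**
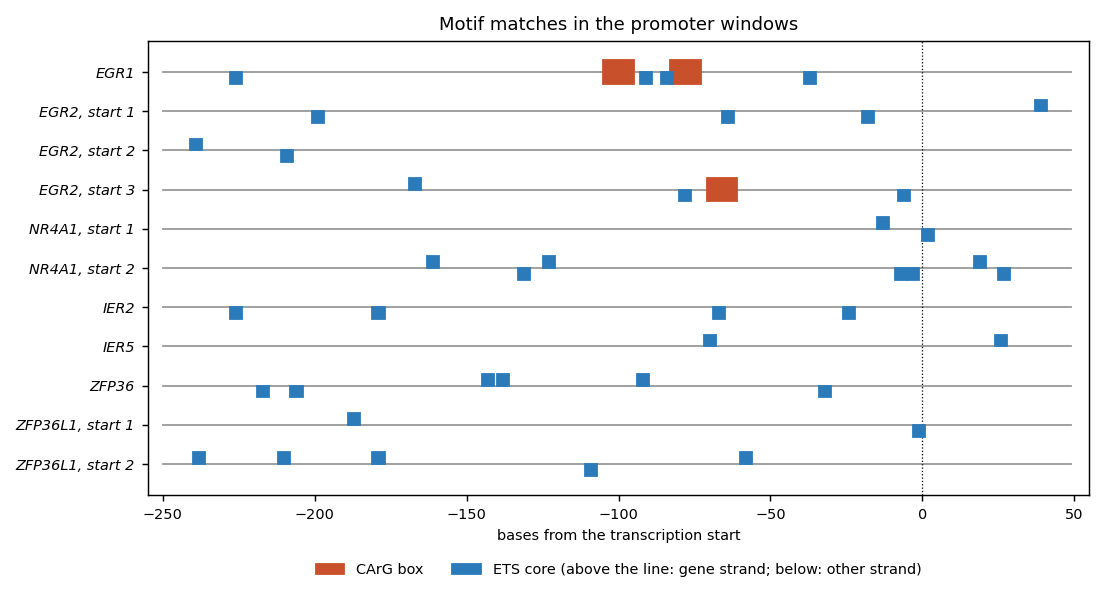
Matches to the CArG box (tall red bars) and to the ETS core (blue bars, above the line on the gene's strand and below it on the other) in the 11 promoter windows of 7 members, by distance in bases from the transcription start. The 3 CArG boxes are in the windows of EGR1 and of the third start of EGR2, each with an ETS core within 10 bases, while ETS cores are in every window.

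The genes were placed on GRCh38 with the GENCODE 29 annotation, which lists each as protein coding. EGR1 lies at chr5:138465490-138469315 on the plus strand and EGR2 at chr10:62811996-62919900 on the minus strand, while EGR3 is on chromosome 8. NR4A1 lies at chr12:52022832-52059507 on the plus strand. The IER genes share a prefix and not a locus: IER2 is at chr19:13150415-13154908 (plus), IER3 at chr6:30743199-30744554 (minus) and IER5 at chr1:181088712-181092899 (plus). ZFP36 lies at chr19:39406813-39409412 (plus) and ZFP36L1 at chr14:68787660-68796253 (minus). MCL1 lies at chr1:150574551-150579738 (minus).

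ELK3, the gene on the plasmid, was checked before the members. Its counts were 618 and 509 in the NC libraries, 493 and 505 with miR-200a, while those labelled as having the miRNA and the plasmid had 406 and 337. The latter were thus the lowest of the 6 and not the highest, and ELK3 was at -0.79 on the log2 scale against the NC mimic (edgeR adjusted p = 0.0117). Against miR-200a ELK3 was at -0.23 (edgeR adjusted p = 0.354) and did not pass. With miR-200a alone it was at -0.56 against the NC mimic (adjusted p = 0.232), which did not pass either. QuantSeq reads RNA close to its polyadenylated end, and the plasmid lacks the native 3′UTR. These counts may therefore not report RNA from the plasmid, which was not tested. By quantitative PCR and western blot, the study reported that ELK3 RNA and protein, lowered by miR-200a, returned to the control level with the plasmid. Because ELK3 counts were not higher in the libraries labelled as having the plasmid, these are called by their label, the ELK3-labelled libraries, throughout. SRF, the partner of ELK3, rose by 0.68 on the log2 scale against miR-200a (edgeR adjusted p = 0.0153) and by 0.73 against the NC mimic (adjusted p = 0.0114).

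Total counts ranged from 3055915 to 4868004 per library, and 3 counts, taken as the lowest level that can be told from none, were 0.616 to 0.982 CPM (the count relative to a library size that was scaled by the TMM method). These limits cover counting error only. Replicate libraries varied more than counting error allows in every group, with a chi-square per degree of freedom of 2.55 (NC mimic), 1.93 (miR-200a) and 15.9 (ELK3-labelled). Of 6 markers of this mesenchymal line, 5 were detected well enough to test and SPARC had 0 to 8 counts. Among luminal and epithelial markers ESR1 was at 0 in all libraries, PGR had 0 or 1 count, and CDH1 had 0 to 12. TFF1, CLDN3 and FOXA1 had at most 7 counts. Others of these markers were expressed, with 589 to 1143 counts for CLDN4, 143 to 392 for KRT19, 39 to 140 for EPCAM and 14 to 42 for GATA3. Of the mesenchymal markers, CD44 fell in the ELK3-labelled libraries, by 0.61 on the log2 scale against miR-200a and by 0.58 against the NC mimic (edgeR adjusted p = 0.0151 and 0.0181). The other 4 did not pass: VIM was at -0.66 and -0.72, CAV1 at -0.28 and -0.16, MSN at -0.21 and -0.05, and AXL at 0.23 and 0.19. The part of these markers in the members' values was not tested. None of the 5 tested luminal markers passed in edgeR with miR-200a, where 4 were higher at an unadjusted p under 0.05 and DESeq2 and limma called 1 each. In the ELK3-labelled libraries these 5 had a median of -0.56 against miR-200a, all 5 below 0, and 0.44 against the NC mimic, 1 below 0. None passed in edgeR there, with 2 lower and 2 higher at an unadjusted p under 0.05, and limma called 1 higher against the NC mimic.

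With miR-200a alone, 1 of the 10 members passed the test, EGR1, which fell. The share of all tested genes called was 0.269% in either direction and 0.0553% for lower genes. The members' median log2 fold change was -0.04, beside -0.02 over all tested genes, and 5 of 10 were below 0. In the ELK3-labelled libraries all 10 members had negative log2 fold changes against both other groups. Against miR-200a, 4 of 10 fell (EGR1, NR4A1, ZFP36L1 and MCL1), beside 5.91% of tested genes lower and 7.03% higher. Against the NC mimic, 6 of 10 fell, the same 4 with EGR2 and IER2, beside 5.95% lower and 6.92% higher. No member rose in either comparison by edgeR, DESeq2 or limma, nor at an unadjusted p under 0.05 in edgeR. The members' median log2 fold change was -1.27 against miR-200a and -1.24 against the NC mimic, while the medians of all tested genes were 0.02 and 0.01. Both comparisons use the same ELK3-labelled libraries, so their counts are not independent of each other. In bulk RNA, fewer cells with a high level and a lower level in each cell cannot be told apart.

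These counts moved with single libraries. Without replicate 1 of the ELK3-labelled libraries, 7 members fell against miR-200a and 9 against the NC mimic, with 4684 and 4675 of 13119 tested genes called. Without replicate 2, 8 and 7 members fell, with 2892 and 2926 of 13102 tested genes called. Leaving out replicate 2 of miR-200a gave 2 members against miR-200a, with 31 of 12988 tested genes called. Leaving out replicate 1 or replicate 2 of the NC mimic gave 3 members against the NC mimic, with 97 of 12973 and 96 of 13041 tested genes called. A lone library was assumed to vary like the other groups.

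**Figure D2:**
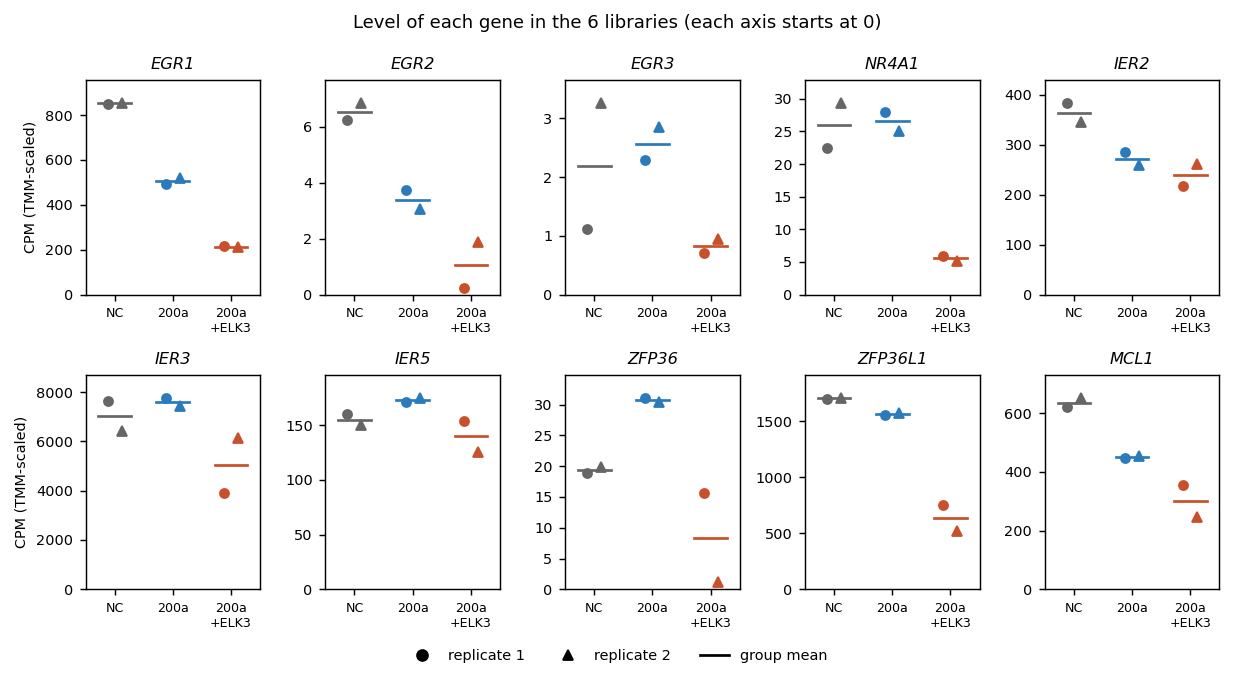
TMM-scaled CPM of each member in the 6 libraries, with circles for replicate 1, triangles for replicate 2 and a bar for the group mean; 200a is the miR-200a mimic and 200a +ELK3 the ELK3-labelled libraries. EGR1 steps down over the 3 groups (means 852, 506 and 213 CPM), NR4A1 and ZFP36L1 are lowest in the last group, and the replicates of ZFP36 there lie far apart (15.6 and 1.17 CPM).

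EGR1, the best studied member of its family, had 3814 and 2617 counts (849 and 854 CPM) in the NC libraries. With miR-200a it had 2367 and 2552 counts (491 and 520 CPM), and in the ELK3-labelled libraries it had 907 and 899 (215 and 211 CPM). The 3 groups did not overlap, and the order was NC mimic, miR-200a, then the ELK3-labelled libraries. The group levels were 852 ± 3.21, 506 ± 20.2 and 213 ± 2.49 CPM (SD, n = 2 each). EGR1 fell 1.68-fold with miR-200a (log2 fold change -0.75, standard error 0.11, edgeR adjusted p = 0.0289). It fell a further 2.37-fold in the ELK3-labelled libraries (-1.25, standard error 0.11, adjusted p = 0.000389). Relative to the NC mimic it was 4.0-fold lower (-2.0, 95% interval -2.25 to -1.75, adjusted p = 2.72e-05), the second smallest p-value of all tested genes. Both falls in the ELK3-labelled libraries passed under all 14 alternatives. The fall with miR-200a passed under 8 of 14, among them DESeq2 (adjusted p = 0.000687) and an edgeR model of these 2 groups alone (2.26e-10). It did not pass with a replicate block (adjusted p = 0.0834) or by limma (0.268). Nor did it pass without any one library of the NC mimic or miR-200a, which leaves 1 library in a compared group. Its log2 fold change stayed between -0.79 and -0.71 over the alternatives.

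EGR2, which directs hindbrain and Schwann cell development and is also induced by serum, had few counts. It came near or below the limit of detection only in the ELK3-labelled libraries. Its counts were 28 and 21 in the NC libraries (6.24 and 6.85 CPM), 18 and 15 with miR-200a (3.74 and 3.06 CPM), then 1 and 8 in the ELK3-labelled libraries (0.237 and 1.88 CPM). The groups stood in the same order as for EGR1 and did not overlap. EGR2 fell against the NC mimic (log2 fold change -2.59, standard error 0.61, edgeR adjusted p = 0.0241). Against miR-200a it did not pass (-1.65, 95% interval -3.09 to -0.21, adjusted p = 0.118), and neither did miR-200a against the NC mimic (-0.93, interval -2.04 to 0.17, adjusted p = 0.633). The summed counts, 9 against 49, correspond to a level 6.11-fold lower than in the NC libraries, with a counting interval of 2.97 to 14.2. The call against the NC mimic was lost in a model of these 2 groups alone (0.0541), by limma (0.0913) and without any one of the NC mimic or miR-200a libraries: the adjusted p was 0.140 and 0.159 without replicate 1 or 2 of the NC mimic and 0.0627 and 0.0622 without those of miR-200a. EGR2 without replicate 1 of the ELK3-labelled libraries was at -0.85 against miR-200a (adjusted p = 0.327) and at -1.77 against the NC mimic (0.0232). Without replicate 2, which leaves the library with 1 count, it was at -3.72 (0.00859) and -4.63 (0.000419).

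EGR3, a close relative of EGR1, had 5 and 10 counts in the NC libraries, 11 and 14 with miR-200a, then 3 and 4 in the ELK3-labelled libraries. The last group was below both others, which overlapped. No difference passed the test: log2 fold changes were 0.33 for miR-200a against the NC mimic, -1.60 (95% interval -3.11 to -0.10, edgeR adjusted p = 0.141) against miR-200a and -1.28 (-2.90 to 0.35, adjusted p = 0.266) against the NC mimic. Summed over libraries, 7 counts against 25 gave a 3.11-fold lower level than miR-200a, with a counting interval of 1.31 to 8.53. Against the NC libraries, 7 counts against 15 gave a 2.40-fold lower level, and that interval, 0.923 to 6.97, includes no difference. Both intervals cover counting error only, and the ELK3-labelled libraries varied beyond it. The fold change with miR-200a turned to -0.34 without replicate 1 of the NC mimic, so no direction can be given for it.

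NR4A1 (NUR77), which growth factors induce along with the EGR genes, had 101 and 90 counts in the NC libraries (22.5 and 29.4 CPM) and 135 and 123 with miR-200a (28 and 25.1 CPM). In the ELK3-labelled libraries it had 25 and 22 counts (5.92 and 5.17 CPM). The first 2 groups overlapped, and both libraries of the third were below them. NR4A1 fell 4.77-fold against miR-200a (log2 fold change -2.25, standard error 0.26, edgeR adjusted p = 0.00177) and 4.62-fold against the NC mimic (-2.21, standard error 0.27, adjusted p = 0.00131). Both calls held under all 14 alternatives. For miR-200a against the NC mimic the log2 fold change was 0.04, with a 95% interval of -0.45 to 0.54, and it was below 0 without replicate 1 of the NC mimic (-0.14) or of miR-200a (-0.04). Neither promoter window of NR4A1 held a CArG box. Its first start had 2 ETS cores and its second had 7. Of all windows, 28.6% had at least 5, and the share with at least 7 was not counted.

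**Figure D3:**
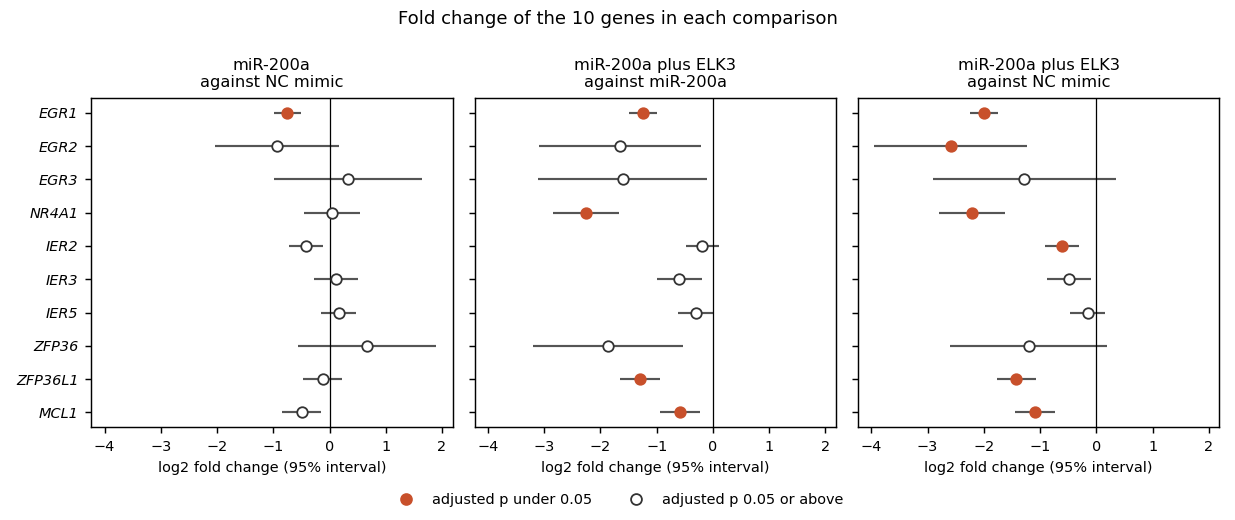
Log2 fold change of each member (points) with its 95% interval (lines) in the 3 comparisons; filled points have an adjusted p under 0.05 in edgeR's quasi-likelihood test. One point is filled for miR-200a against the NC mimic, 4 in the middle panel and 6 in the right panel, and all 10 points of both right-hand panels lie left of 0.

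IER2, a nuclear protein among the first transcripts induced by serum, had 384 and 345 CPM in the NC libraries, 286 and 259 with miR-200a, then 217 and 262 in the ELK3-labelled libraries. Its highest group was the NC mimic, and the other 2 groups overlapped. IER2 fell against the NC mimic in the ELK3-labelled libraries (log2 fold change -0.61, standard error 0.14, edgeR adjusted p = 0.0192). With miR-200a alone it was at -0.42 (95% interval -0.72 to -0.12, adjusted p = 0.333), and between those 2 groups at -0.19 (-0.49 to 0.11, adjusted p = 0.381). The call did not hold without replicate 1 or 2 of the NC mimic (adjusted p = 0.178 and 0.127) or of miR-200a (0.0663 and 0.0672), in a model of these 2 groups alone (0.0623) or by limma (0.0942). Without replicate 1 of the ELK3-labelled libraries, IER2 passed with miR-200a alone (adjusted p = 0.000245), without replicate 2 likewise (0.000190), and without replicate 2 also between the last 2 groups (0.00458).

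IER3, an early response protein that modulates cell survival and ERK signalling, had 34322 and 19675 counts in the NC libraries, 37429 and 36482 with miR-200a, then 16546 and 26085 in the ELK3-labelled libraries. As a share of all counts this was 0.756% and 0.644%, 0.784% and 0.749%, then 0.391% and 0.600%. Both libraries of the last group were below the other 4, but they differed 1.56-fold from each other. IER3 did not pass against miR-200a (log2 fold change -0.60, 95% interval -0.99 to -0.20, edgeR adjusted p = 0.0523) or against the NC mimic (-0.49, interval -0.88 to -0.09, adjusted p = 0.0972). With miR-200a alone it was at 0.11 (interval -0.28 to 0.51, adjusted p = 0.916), and at -0.00789 without replicate 2 of the NC mimic. Without replicate 1 of the ELK3-labelled libraries its log2 fold changes against miR-200a and against the NC mimic were -0.32 and -0.19 (adjusted p = 0.000105 and 0.0141), and without replicate 2 they were -0.99 and -0.86 (6.57e-15 and 2.16e-13). It also passed against miR-200a with DESeq2 (adjusted p = 0.0330). The symbol stands on 6 lines of the files, of which 1 has counts, and an antisense gene, IER3-AS1, overlaps it. EGR3, NR4A1 and IER2 also overlap genes of the opposite strand, and since the strand setting of the counting is not stated, reads of such pairs cannot be told apart.

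IER5, a nuclear protein linked to heat shock factor activity, had 160 and 150 CPM in the NC libraries, 171 and 175 with miR-200a, then 154 and 125 in the ELK3-labelled libraries. The last group was below miR-200a and overlapped the NC mimic. No comparison passed: -0.31 on the log2 scale against miR-200a (95% interval -0.62 to -0.00227, edgeR adjusted p = 0.162) and -0.15 against the NC mimic (-0.46 to 0.16, adjusted p = 0.502). Without replicate 1 of the ELK3-labelled libraries both passed (-0.48 with adjusted p = 0.000521, and -0.31 with 0.0254). IER5, the single member with a miR-200a seed site, was at 0.16 with miR-200a (interval -0.15 to 0.47, adjusted p = 0.799).

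ZFP36 (tristetraprolin), which destabilizes AU-rich RNAs including its own, had 85 and 61 counts in the NC libraries (18.9 and 19.9 CPM), 150 and 149 with miR-200a (31.1 and 30.4 CPM), and 66 and 5 in the ELK3-labelled libraries (15.6 and 1.17 CPM). The miR-200a libraries were the highest, the last group was the lowest, and its replicates differed 13.3-fold. No comparison passed with all libraries: 0.67 for miR-200a against the NC mimic (95% interval -0.56 to 1.90, edgeR adjusted p = 0.788), -1.87 against miR-200a (-3.20 to -0.54, adjusted p = 0.0662) and -1.21 against the NC mimic (-2.60 to 0.19, adjusted p = 0.223). Without replicate 1 of the ELK3-labelled libraries the last 2 values were -4.69 and -4.00 (adjusted p = 4.26e-11 and 8.55e-09). Without replicate 2 they were -1.01 (adjusted p = 0.00186) and -0.32 (adjusted p = 0.398, which does not pass). With these 2 libraries left out in turn, the higher level in miR-200a had an adjusted p of 0.0205 and 0.0155. Any size of change in ZFP36 therefore rests on which of them is used.

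ZFP36L1 shares the RNA-binding zinc fingers of ZFP36 and was far better covered. It had 7619 and 5240 counts in the NC libraries (1697 and 1710 CPM), 7490 and 7740 with miR-200a (1555 and 1577 CPM), and 3192 and 2202 in the ELK3-labelled libraries (756 and 517 CPM). The last group was well below the other 4 libraries. ZFP36L1 fell 2.46-fold against miR-200a (log2 fold change -1.30, standard error 0.16, edgeR adjusted p = 0.00233). It also fell against the NC mimic (log2 fold change -1.42, standard error 0.16, adjusted p = 0.000913). With miR-200a alone it was at -0.12 (95% interval -0.47 to 0.22). The call against the NC mimic held under all 14 alternatives. That against miR-200a was lost without replicate 2 of miR-200a (adjusted p = 0.0596) and by limma (0.0579).

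MCL1, which the cell renews constantly and needs to hold off apoptosis, had 2783 and 2001 counts in the NC libraries (620 and 653 CPM), 2160 and 2228 with miR-200a (449 and 454 CPM), and 1495 and 1045 in the ELK3-labelled libraries (354 and 246 CPM). The groups did not overlap and stood in the order of EGR1. MCL1 fell 2.12-fold against the NC mimic (log2 fold change -1.09, standard error 0.16, edgeR adjusted p = 0.00348) and, less, against miR-200a (-0.59, standard error 0.16, adjusted p = 0.0378). With miR-200a alone it was at -0.50 (95% interval -0.85 to -0.14, adjusted p = 0.333). The call against miR-200a was lost without any one library of the NC mimic or miR-200a (adjusted p = 0.0963, 0.0949, 0.220 and 0.246), in a model of these 2 groups alone (0.0962), by limma (0.135) and with a replicate block (0.0509). That against the NC mimic was lost without replicate 1 or 2 of the NC mimic (0.0619 and 0.0740) and by limma (0.0553). With replicate 1 or replicate 2 of the ELK3-labelled libraries left out, MCL1 passed with miR-200a alone (1.41e-06 and 7.53e-07). The gene overlaps ADAMTSL4-AS1 on the same strand.

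Library by library, EGR1, EGR2, IER2, ZFP36L1 and MCL1 were lower in both miR-200a libraries than in both NC mimic libraries, IER5 and ZFP36 were higher in both, and EGR3, NR4A1 and IER3 overlapped. Over all tested genes, 26.1% were lower without overlap in that comparison, and only the fall of EGR1 passed. The ELK3-labelled libraries were below both miR-200a libraries for 9 of 10 members, all but IER2, beside 28% of tested genes, and below both NC mimic libraries for 9 of 10, all but IER5, beside 27.6%.

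**Figure D4:**
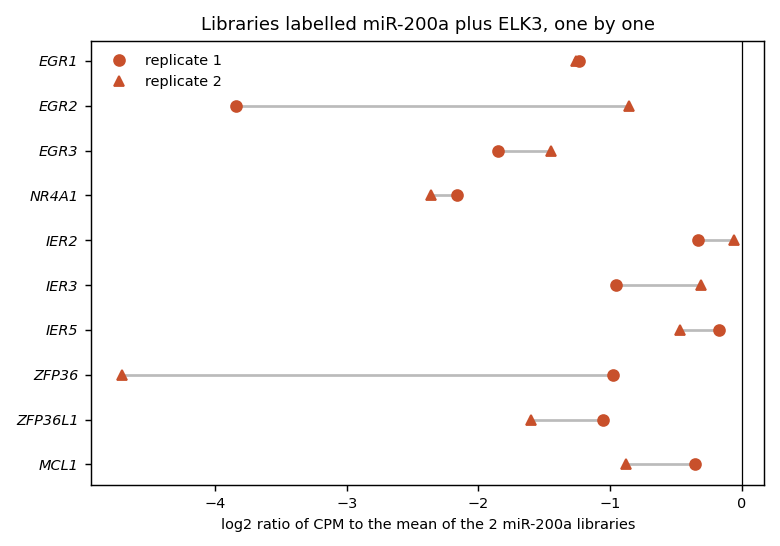
Log2 ratio of CPM in each ELK3-labelled library to the mean of the 2 miR-200a libraries, with circles for replicate 1 and triangles for replicate 2. Both libraries lie below 0 for each of the 10 members; they coincide for EGR1 (-1.24 and -1.26) and lie far apart for EGR2 (-3.84 and -0.85) and ZFP36 (-0.98 and -4.71).

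The ELK3-labelled replicates did not differ in one direction over the members. Replicate 1 was the lower one for EGR2, EGR3, IER2 and IER3. Replicate 2 was the lower one for the other 6. EGR1 differed 1.02-fold between them, ZFP36L1 1.46-fold and MCL1 1.44-fold, and EGR2, with 1 and 8 counts, 7.94-fold. Within the NC mimic and miR-200a groups, the ratios between replicates ran from 1.00 for EGR1 to 2.93 for EGR3, which had 5 and 10 counts.

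AU-rich pentamers (ATTTA), the elements that ZFP36 proteins recognise as part of longer sites, were counted in the 3′UTR of one principal GENCODE 29 transcript of each member. Of the 10 members 9 had at least 1, or 90%, beside 70.6% of tested genes. The median density was 3.43 per kilobase of 3′UTR in the members and 1.67 in all tested genes. IER3 had 6, NR4A1 3, ZFP36 5, ZFP36L1 8, MCL1 10 and IER5 10. EGR1 had 1, EGR2 2, EGR3 3, and IER2 none. The densities of these last 4, at 0.810, 1.65, 1.07 and 0 per kilobase, were below the median of all tested genes. The longer form TATTTAT was in 5 of 10 members (IER3, IER5, ZFP36, ZFP36L1 and MCL1), beside 33.55% of tested genes.

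AP-1 and other immediate-early genes, a list of 36 named beside the members, had 33 genes tested. None passed with miR-200a alone by edgeR's quasi-likelihood test, by DESeq2 or by limma, while 4 higher and 3 lower ones had an unadjusted p under 0.05 in edgeR, and the median log2 fold change was -0.03. In the ELK3-labelled libraries, 22 of 33 fell against miR-200a and 22 of 33 against the NC mimic. Of all tested genes, 5.91% and 5.95% fell in these comparisons. None of the 33 rose by edgeR, DESeq2 or limma or at an unadjusted p under 0.05 in edgeR, with median log2 fold changes of -0.93 and -0.92. PIM1, a survival kinase, was at -2.27 against miR-200a and -1.94 against the NC mimic (adjusted p = 0.00652 and 0.0111). PTGS2 (COX-2), which makes prostaglandins, was at -2.17 and -2.50 (adjusted p = 0.00947 and 0.00482). The AP-1 subunits FOS, at -2.13 and -2.33, and FOSB, at -1.69 and -2.22, fell in both comparisons (adjusted p = 0.00927, 0.00620, 0.00143 and 0.000201), as did the phosphatase gene DUSP1, at -1.61 and -1.59 (0.00348 and 0.00309), and JUNB, at -1.38 and -1.69 (0.00293 and 0.000913). Without replicate 2 of miR-200a the count against miR-200a was 1, and without replicate 1 it was 2; without either NC mimic library, 4 were called against the NC mimic.

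Of the relatives and partners of the members, 13 were tested, and 2 fell against miR-200a, beside 5.91% of all tested genes. BBC3 (PUMA), a proapoptotic protein that MCL1 binds, was at -1.38 (adjusted p = 0.00107). NR4A2, a sister gene of NR4A1 that is also counted in the list of 36, was at -1.32 (adjusted p = 0.00293). Both also fell against the NC mimic, at -1.34 and -1.32 (adjusted p = 0.000867 and 0.00238), where BCL2L1 (BCL-XL), another antiapoptotic relative of MCL1, rose by 0.51 (adjusted p = 0.0249). The median of the list was -0.04 and -0.03 in these 2 comparisons, and 0.19 with miR-200a alone, where none passed by edgeR, DESeq2 or limma and 3 were higher at an unadjusted p under 0.05 in edgeR. The list of ternary complex factors, SRF and MRTFs had 6 genes tested and medians of 0.05, 0.15 and 0.31 in the 3 comparisons, and SRF and ELK3, given above, were its only called genes. Of the remaining ternary complex factors, ELK1 was at -0.27 and ELK4 at 0.01 against miR-200a, and neither passed.

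Of 12 genes that ERK signalling induces as its own feedback, all tested, 6 fell against miR-200a (median -0.46), beside 5.91% of all tested genes. Among the 6 were DUSP5 at -1.24 (adjusted p = 0.00236), SPRY2 at -1.03 (adjusted p = 0.00705) and ERRFI1 at -0.95 (adjusted p = 0.00446), which restrain ERK or its receptors. Against the NC mimic 4 fell and 1 rose (median -0.35), beside 5.95% of all tested genes lower and 6.92% higher. Of the 12, DESeq2 called 5 lower against miR-200a, and 4 lower and 1 higher against the NC mimic. Limma called 0 against miR-200a and 2 lower against the NC mimic. The one that rose was ETV5, an ETS factor, at 0.87 (adjusted p = 0.0117). The actin genes that SRF controls with its MRTF partners had a median of 0.11 in both comparisons. Of 13 tested, 1 passed in each, or 7.69%, near the shares of all tested genes called higher, 7.03% and 6.92%. These were FILIP1L at 0.97 against miR-200a (adjusted p = 0.0346) and FLNA at 0.56 against the NC mimic (adjusted p = 0.0249), both higher. With miR-200a alone the medians of the ERK feedback and actin lists were 0.21 and 0.10. None of their genes passed there by edgeR, DESeq2 or limma, while 4 ERK feedback genes and 1 actin gene were higher at an unadjusted p under 0.05 in edgeR.

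**Figure D5:**
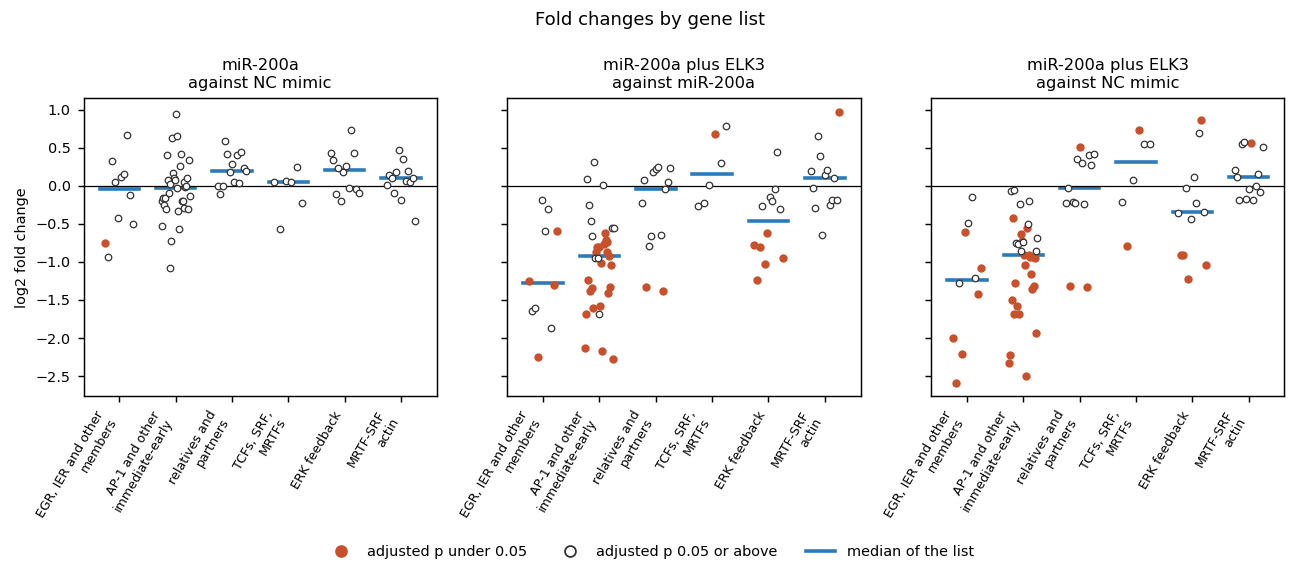
Log2 fold change of each tested gene of the 6 lists (points, filled where the adjusted p was under 0.05) and the median of each list (bars) in the 3 comparisons. The medians of the members and of the AP-1 list lie between -1.27 and -0.92 in the 2 panels with the ELK3-labelled libraries, that of the ERK feedback genes at -0.46 and -0.35, and those of the actin genes at 0.11.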

How the data were processed

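RNA from 6 MDA-MB 231 samples was sequenced as QuantSeq 3′ mRNA libraries. The files the authors deposited hold unnormalized read counts, a whole number for every gene symbol. The submitters' processing notes name Bowtie2, edgeR and the build hg19, without their roles or versions, and the counting program, the annotation and the strand setting are not given in the sources used here. Each file has 25737 lines, and the 286 symbols on several lines were summed. Groups and replicate numbers came from the sample labels.

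The groups were compared by the two-sided quasi-likelihood test of edgeR 4.0.16 in R 4.3.3 (TMM scaling, the filterByExpr filter at 10 counts, 3 residual degrees of freedom before moderation), with all 6 libraries in a single model and p-values adjusted by the Benjamini-Hochberg method over 12650 genes at a threshold of 0.05. The method was tested on simulated data with the same spread between libraries in every group, which the groups here did not have. Alternatives were DESeq2 1.42.0, no filter on low counts, a filter of 10 counts in every library, upper-quartile scaling, models of only 2 groups, a replicate block, limma 3.58.1 on quantile-normalized log2(count + 1), and each library left out in turn. A replicate block with crossed numbers was added after seeing the data.

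The members and gene lists were chosen with earlier results of these data known. From each list, ELK3 and SRF and at most 5 called genes with the largest absolute log2 fold changes were named in a comparison. JUNB is given in both comparisons although it was among the 5 only against the NC mimic, DUSP1 although it was among them only against miR-200a, and ELK1 and ELK4 were added after their values were seen. Promoter, miRNA and 3′UTR features came from RefSeq tables on GRCh38.p14 and GENCODE 29 on GRCh38, matched by symbol, and no coordinate was converted between builds.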

Additional observations from a re-analysis of the deposited data

How the results depend on the processing

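Over the alternatives, 345 of 410 log2 fold changes of members kept their direction and their side of the threshold, 30 were no longer past it, 31 came past it, and 4 reversed, all in miR-200a against NC mimic and none past the threshold. With replicate 1 of the NC mimic left out EGR3 was at -0.34, NR4A1 at -0.14 and IER3 at 0.24, with its replicate 2 left out they were at 1.19, 0.24 and -0.00789, and with replicate 1 of miR-200a left out NR4A1 was at -0.04. The causes were not tested. Counts of called genes below are in the order miR-200a against the NC mimic, the ELK3-labelled libraries against miR-200a, and the same against the NC mimic. Over all tested genes they were 34, 1637 and 1629. They were 88, 1241 and 1264 with DESeq2, 230, 2490 and 2525 without a filter, 983, 542 and 587 with only the compared groups, 13, 1157 and 1170 with the replicate block, and 4, 107 and 391 with limma. Leaving out a library gave 0 to 1010, 31 to 4684 and 96 to 4675. With only the compared groups, IER2, ZFP36 and MCL1 also passed in the first comparison (0.000305, 0.0166 and 2.35e-06). Of the members, 1, 4 and 6 were called, 2, 7 and 8 without a filter, 4, 3 and 4 with only the compared groups, 0, 3 and 6 with the replicate block, and 0, 2 and 3 with limma. Leaving out a library gave 0 to 4, 2 to 8 and 3 to 9. Of AP-1 and other immediate-early genes, 0, 22 and 22 were called, 1, 28 and 26 without a filter, 11, 16 and 16 with only the compared groups, 0, 21 and 20 with the replicate block, and 0, 4 and 10 with limma. Leaving out a library gave 0 to 11, 1 to 28 and 4 to 28. Without a filter, EGR2 and MCL1 each gained a call (adjusted p = 0.0417 against miR-200a and 0.0493 in the first comparison), and IER3 and ZFP36 passed in both comparisons of the ELK3-labelled libraries (3.22e-08 and 1.77e-09 against miR-200a, 3.86e-05 and 0.000802 against the NC mimic). Upper-quartile normalization gave IER3 a call against miR-200a (0.0424) and changed the split of higher and lower calls from 889 and 748 to 622 and 882 against miR-200a, and from 876 and 753 to 677 and 902 against the NC mimic.

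Libraries with the same replicate number did not deviate together over all tested genes (correlations of -0.00299, -0.0357 and -0.108). With 2 libraries in a group these correlations cannot show whether libraries of the same number shared a day or culture. With the numbers of the last group crossed, a pairing chosen after seeing the data, 22, 1644 and 1661 genes and 1, 6 and 7 members were called. With 2 libraries in a group no sample could be tested as standing apart from its group. EGR2 and EGR3, with at most 28 counts in a library, are limited by depth.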
